A study of Homo sapiens and Mus musculus with 20 samples.

Results

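The replication-dependent histone genes supply the core and linker histones that package newly made DNA. Their RNA was followed in IMR90 cells, a human lung fibroblast line of wild-type genotype. Members were chosen by symbol (H1-1 to H1-6, H2AC, H2BC, H3C and H4C followed by a number) among the genes listed in the A485 and MS-275 experiments. This gave 34 of 17552 listed genes, namely 3 of class H1, 8 of H2A, 12 of H2B, 2 of H3 and 9 of H4. The A485 list held 33 of them, the MS-275 list 24, and both lists 23. The pyruvate list held 11. A gene was listed where at least 2 of the 4 libraries of an experiment held 10 reads or more (20 in the pyruvate list), so the choice of members rested on measured reads, and genes under this limit were not analysed here.

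The bulk RNA-seq series had 20 libraries, of which the 12 from IMR90 cells were used. A485 blocks the histone acetyltransferase p300, and A485 cells were compared with Control2. MS-275 blocks histone deacetylases of class I, and MS-275 cells were compared with Control3. Cells given pyruvate, the end product of glycolysis, were compared with Control6. Each group had 2 libraries, the control cells were labelled as having no treatment, and the labels gave no dose or time. Nothing in the labels says that the 2 libraries of a group came from separate cultures, so the p-values measure the spread between these libraries, which may be technical. The study used these treatments to ask how enzymes that act on histone lactylation, and the supply of pyruvate, bear on senescence of the cells.

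Most replication-dependent histone genes lie in a large cluster on chromosome 6 and a smaller one on chromosome 1, lack introns in their coding part and are transcribed mainly in S phase. Their mRNA classically ends in a conserved stem-loop in place of a poly(A) tail. SLBP binds this stem-loop, and a U7 snRNP with LSM10 and LSM11 cuts the RNA behind it. NPAT drives transcription of the clusters, and POU2F1 (OCT-1) binds an octamer in H2B promoters. Polyadenylated forms of some of these RNAs are known from cells that leave the cycle. Whether the libraries were made from poly(A) RNA or from total RNA is not given in the sources used here.

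The stem-loop is shown because it defines the group, and it was present in nearly all members. The pattern, a left stem GGNNCT, a loop TTTN and a right stem AGNNCC in a row, searched on the gene's own strand in the 100 bases after the stop codon (hg38), was found in 33 of 34 members. It was found in 0 of 1931 other listed protein-coding genes on chromosomes 1 and 6, or 0%. H3C6 was the member without a match. The capitals mark the 4 bases of the loop.
H1-2 (shared by 16 members, among them H2AC6, H2BC21 and H3C10): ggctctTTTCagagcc
H2BC12 (shared by 5 members, all of class H2B): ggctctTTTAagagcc
H4C8 (shared by 5 members, all of class H4): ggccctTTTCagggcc
H4C14 (shared by 4 members, all of class H4): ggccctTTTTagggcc
The other 3 members, H2AC11, H2AC15 and H2AC20, had a form of their own. In H1-2 the stem-loop lay at chr6:26055744-26055759 on the minus strand, in H2BC12 at chr6:27146366-27146381 on the minus strand, in H4C8 at chr6:26285131-26285146 on the minus strand and in H4C14 at chr1:149833032-149833047 on the plus strand.

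H2B promoters are shown because class H2B holds members called higher after A485, H2BC21, H2BC18 and H2BC5 among them, and members not called, H2BC12 and H2BC9. Each line gives the bases from 110 to 11 before the start of the gene (RefSeq, GRCh38.p14), with the octamer ATTTGCAT in capitals.
H2BC21: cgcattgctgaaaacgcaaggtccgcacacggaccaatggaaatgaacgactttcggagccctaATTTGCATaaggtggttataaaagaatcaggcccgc
H2BC18: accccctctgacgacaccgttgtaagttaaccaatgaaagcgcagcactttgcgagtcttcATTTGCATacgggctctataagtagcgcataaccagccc
H2BC12: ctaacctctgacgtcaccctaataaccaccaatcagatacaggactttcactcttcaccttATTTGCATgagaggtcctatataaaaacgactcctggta
H2BC9: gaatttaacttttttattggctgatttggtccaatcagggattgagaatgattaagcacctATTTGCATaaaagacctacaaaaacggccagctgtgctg
H2BC5: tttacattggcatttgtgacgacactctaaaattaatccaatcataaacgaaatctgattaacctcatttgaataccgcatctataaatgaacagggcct
They lie at chr1:149886693-149886792 on the minus strand, chr1:149812381-149812480 on the minus strand, chr6:27146866-27146965 on the minus strand, chr6:26251504-26251603 on the plus strand and chr6:26158011-26158110 on the plus strand. Promoters of 33 of the 34 members were matched in RefSeq. On either strand in the 250 bases before the start, the octamer was present in 10 of 12 H2B and 4 of 8 H2A members and in 1.63% of all 35116 promoters, and in no H1, H3 or H4 member. CCAAT, a common promoter element, was in 25 of the 25 H1, H2A, H2B and H3 members but in 1 of 8 H4 members, against 32.0% of all promoters. TATAAA was in 22 of 33 members and in 10.7% of all promoters. Members with the octamer and members without it (H2BC5 and H2BC15) are both found among those called after A485.

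Depth ran from 24179065 to 46971227 reads per library, summed over listed genes. All 13 fibroblast markers checked, such as COL1A1, DCN and VIM, were listed in each experiment. Of 12 markers of other cell types, 5 were listed in the drug experiments, and PTPRC, PECAM1, CDH5, CDH1 and SFTPC were in none of the 3 lists. Markers of both kinds moved with A485. Of the 13 fibroblast markers 10 were called lower (7.06% of all genes were), and their summed normalised read counts were 1926532 and 2394110 in Control2 against 578921 and 704550 after A485. The epithelial marker EPCAM was called higher after A485 (64.2 and 47.7 in Control2, 208 and 177 after A485), while KRT18 and the endothelial marker VWF were called lower. The 5 listed markers of other cell types summed to 2665 and 3150.5 in Control2 and 1288 and 1604 after A485. After pyruvate DCN, LUM, PDGFRA and FAP were called higher and THY1 lower among the fibroblast markers, and VWF lower among the others. Over all genes 31.0% were called higher and 23.1% lower in that experiment. The part of these markers in the histone results was not tested. As these are bulk samples, fewer cells of a kind and less RNA per cell cannot be told apart.

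After A485, 12 of the 18 replication-dependent histone genes that had 10 reads or more in both Control2 libraries were called higher and none lower, where a call needs an adjusted p under 0.05 by limma and a log2 fold change beyond 1. They were H1-2 of class H1, H2AC6 of H2A, 7 H2B genes, both H3 genes and H4C8 of H4. Among all 14740 genes tested that met the same limit in Control2, 2.99% were called higher and 7.70% lower. The median log2 fold change of the 18 members was 1.93 against -0.04 for those genes, and 13 of the 18 had both A485 libraries above both Control2 libraries. All 33 listed members, not only these 18, took 0.0234% and 0.0172% of reads in the Control2 libraries and 0.0818% and 0.0911% in the A485 libraries.

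Another 14 members reached 10 reads in both A485 libraries but not in both Control2 libraries, so the way the list was made favoured higher values after A485 in them. These are H1-3, H1-4, H2AC15, H2AC18, H2AC19, H2BC6, H2BC7 and all listed H4 members but H4C8. The fit covered 13 of them and called 3 (H2BC6, H4C12 and H4C14), and these calls support nothing here. With them 15 of 31 members tested were called higher, with a median of 2.39, and 24 had both A485 libraries above both controls. Over all 16084 genes tested, 3.31% were called higher and 7.06% lower, and 30.4% had both A485 libraries above both controls and 30.7% below. That H2BC6 was higher after A485 was known when the set was chosen. All values below are normalised read counts, that is, reads divided by the authors' size factor of the library.

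**Figure D1:**
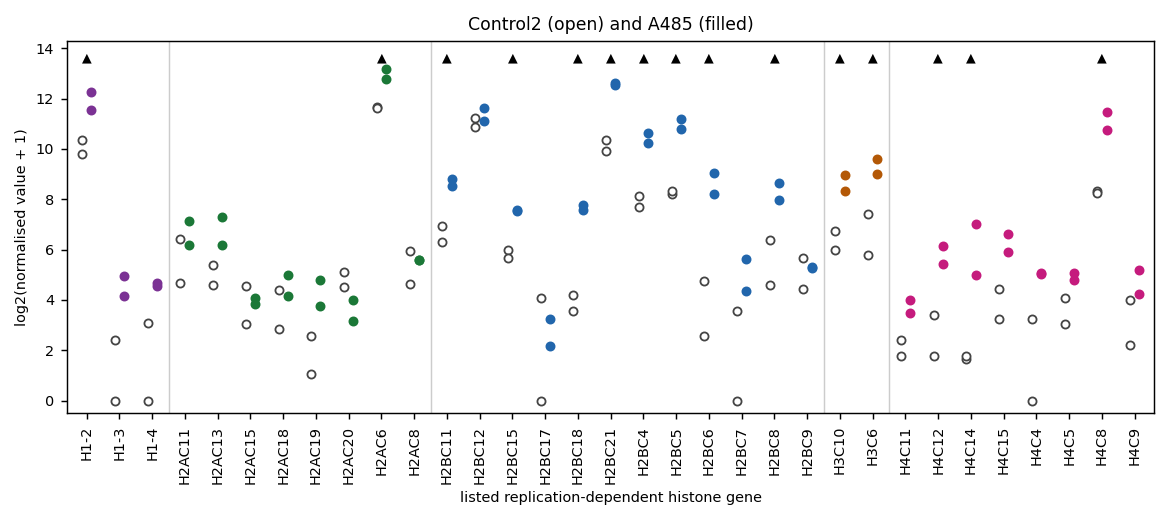
Normalised read counts, as log2(value + 1), of the 33 members listed in the A485 experiment. Open circles are the 2 Control2 libraries, filled circles the 2 A485 libraries coloured by class, and triangles mark the 15 members called higher, of which H2BC6, H4C12 and H4C14 were listed through the A485 libraries. H2AC8, H2AC11, H2AC15, H2AC18, H2BC9, H2BC12 and H2BC17 overlap between the groups. All H4 members shown but H4C8 were listed through the A485 libraries, which favoured higher values after A485 in them.

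In class H1, the linker histones that bind DNA between nucleosomes, nearly all reads came from H1-2. H1-2 stood at 1306 and 895 in Control2 and at 2965 and 4871 after A485. It rose by 1.81 on the log2 scale (SE 0.30, adjusted p = 0.0187, limma). H1-3 stood at 4.28 and 0 in Control2 and 16.9 and 30.3 after A485, and H1-4 at 7.49 and 0 against 24.4 and 22.3. Both were low, and their listing rests on the treated libraries.

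In class H2A, 1 of 8 members was called, and it held 95.6% of the class's reads. H2AC6 stood at 3271 and 3196 in Control2 and at 7048 and 9352 after A485 (log2 fold change 1.33, SE 0.19, adjusted p = 0.0121, limma). The other H2A members were low and mixed. H2AC13 stood at 40.7 and 23.3 in Control2 and 72.5 and 154 after A485 (log2 fold change 1.75, adjusted p = 0.101, limma). H2AC11 stood at 85.6 and 24.5 against 71.6 and 139.8, and H2AC8 at 23.5 and 61.2 against 47.2 and 47.2. The groups of both overlapped. H2AC19 stood at 1.07 and 4.90 against 12.6 and 26.7, but its coding part is identical to that of H2AC18 on chromosome 1, so reads may be shared between them. H2AC20 had the only negative estimate among the members tested, with 33.2 and 22.03 in Control2 and 15.2 and 8.02 after A485 (log2 fold change -1.22, adjusted p = 0.264, limma).

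In class H2B, 7 of the 9 members with 10 reads or more in both Control2 libraries were called higher. H2BC21, which lies in the chromosome 1 cluster, stood at 1306 and 971 in Control2 and at 6383 and 5956 after A485. It rose by 2.45 on the log2 scale (SE 0.20, adjusted p = 0.0026, limma). H2BC4 stood at 278 and 203 against 1193 and 1569 (log2 fold change 2.52, SE 0.27, adjusted p = 0.00525, limma). H2BC18 went from 10.7 and 17.1 to 188.8 and 219 (log2 fold change 3.81, SE 0.48, adjusted p = 0.00781, limma). In these 3 genes each A485 library was far above both control libraries. H2BC6 stood at 25.7 and 4.90 in Control2 and 529 and 293 after A485, and is one of the members listed through the treated libraries.

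The other 2 of the 9 were not called. H2BC12, an abundant member, stood at 2377 and 1862 in Control2 and at 2182 and 3206 after A485 (log2 fold change 0.33, SE 0.25, adjusted p = 0.415, limma). H2BC9, a low one, stood at 50.3 and 20.8 against 38.8 and 37.4 (log2 fold change 0.22, adjusted p = 0.833, limma). In both genes the groups overlapped. The remaining called members, H2BC5, H2BC8, H2BC11 and H2BC15, had log2 fold changes of 2.74, 2.82, 2.05 and 1.71. H2BC7 was not called, and H2BC17, with 16.1 and 0 in Control2 and 8.43 and 3.56 after A485, was under the mean of 10 needed for a test.

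Both H3 members were called higher. H3C6 stood at 169 and 53.9 in Control2 and 780.4 and 509 after A485 (log2 fold change 2.71, SE 0.57, adjusted p = 0.0342, limma). H3C10 stood at 107 and 62.4 against 320.3 and 505 (log2 fold change 2.28, SE 0.42, adjusted p = 0.0236, limma). The groups did not overlap in either gene.

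In class H4, H4C8 carried 87.6% of the class's reads and was the only member with 10 reads or more in both Control2 libraries. H4C8 stood at 319 and 307 in Control2 and at 1727 and 2803 after A485 (log2 fold change 2.81, SE 0.28, adjusted p = 0.00408, limma). The other H4 members were listed through the treated libraries. H4C14 stood at 2.14 and 2.45 against 128 and 31.2, and its copy H4C15, identical in its coding part, at 8.56 and 20.8 against 58.2 and 96.2. H4C12 stood at 9.63 and 2.45 against 42.1 and 70.4, and H4C4 at 8.56 and 0 against 32.0 and 33.0. H4C11, identical to H4C12 in its coding part, stood at 4.28 and 2.45 against 10.1 and 15.1 and was too low for a test. The split of reads between such copies is uncertain.

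The number of calls leaned on single libraries. Of the 18 members, 1 was called without the first A485 library (H4C8) and 1 without the second (H2BC5). Without the first Control2 library 7 were called, and without the second 5 (H2BC18, H2BC21, H2BC4, H2BC5 and H4C8). Over all genes, calls higher fell from 532 to 3, 2, 196 and 106 in these fits, which have fewer samples.

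Summed over all listed members of a class, the A485 libraries lay above the Control2 libraries in each class. The sums take in the 14 members listed through the A485 libraries, among them all listed H4 members but H4C8. In these members the listing favoured higher values after A485. The H1 sum was 3.58 times that of control, the H2A sum 2.49 times, the H2B sum 3.404 times, the H3 sum 5.39 times and the H4 sum 7.07 times. With 2 libraries against 2 the smallest exact permutation p is 0.333, so the sums were not tested.

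**Figure D2:**
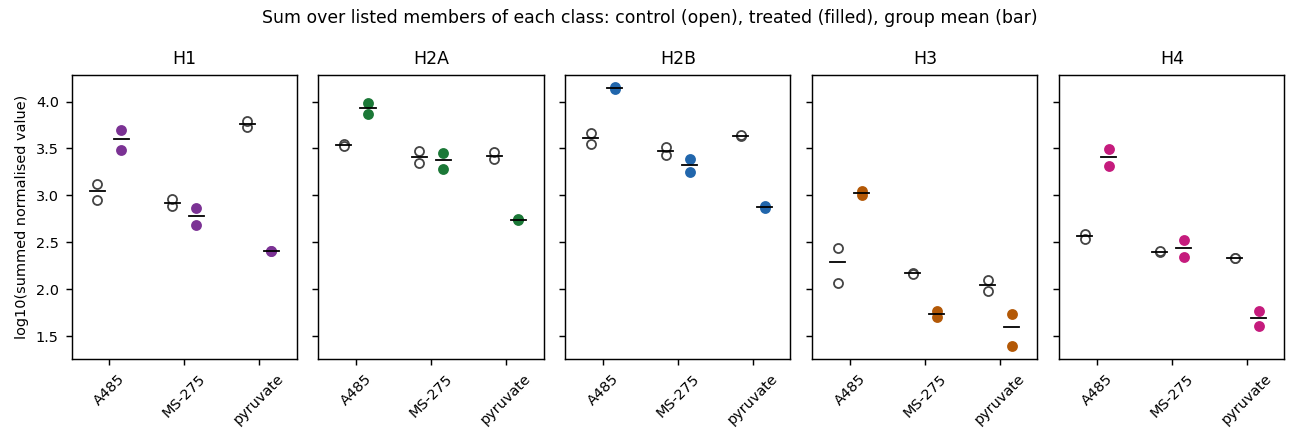
Summed normalised read counts of the listed members of each class, on a log10 scale, in the 3 experiments. Open circles are control libraries, filled circles treated libraries and bars group means. All 5 sums are higher after A485 and lower after pyruvate, while after MS-275 only the H1, H2B and H3 sums lie wholly below control. In the pyruvate experiment the H1, H2A and H4 sums hold only 1 member each (H1-2, H2AC6 and H4C8), as does the H1 sum in the MS-275 experiment (H1-2). The sums include members whose listing favoured the treated or the control libraries. Each experiment was normalised on its own, so heights are comparable only within an experiment.

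After MS-275 no member was called. The 24 listed members took 0.0144% and 0.0182% of reads in Control3 and 0.00978% and 0.0136% after MS-275. Of 21 members tested, 0 were called in either direction by limma and 4 had an unadjusted p under 0.05, all with lower values after MS-275. Of all 15883 genes 0% were called, while the unadjusted p of 1730 was below 0.05. The median log2 fold change of the members was -0.41 against -0.01 for all genes, and 10 members had both MS-275 libraries below both Control3 libraries, which 19.3% of all genes had. The reverse order was seen in 4 members and in 19.5% of all genes. Of 24 listed members, 18 had 10 reads or more in both Control3 libraries. For H2AC13, H2AC8, H2BC9 and H4C3 the limit was reached in Control3 and not in both MS-275 libraries, so the listing favoured lower values after MS-275 in these 4, and for H2BC6, H4C12 and H4C14 it favoured higher ones.

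The 4 lowest p-values belonged to H3C6, H2BC21, H2BC4 and H2BC9. H3C6 stood at 94.1 and 105 in Control3 and 23.2 and 21.9 after MS-275 (log2 fold change -2.09, SE 0.43, adjusted p = 0.243, limma). H2BC21 stood at 834 and 611 against 300.2 and 255 (log2 fold change -1.36, SE 0.36, adjusted p = 0.303, limma). H2BC4 stood at 121 and 93.0 against 38.7 and 26.9 (log2 fold change -1.68, SE 0.46, adjusted p = 0.312, limma). In each the 2 groups were apart, though none was called, and the reason was not tested. H2BC9 stood at 27.7 and 32.3 against 7.75 and 7.97 (log2 fold change -1.80, adjusted p = 0.348, limma). Fitted with all 12 libraries, which share 1 estimate of the spread, 3 members were called lower (H2BC21, H2BC4 and H3C6) of 11 tested, against 267 of 11989 genes.

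H1-2, H2BC12, H2AC6 and H4C8 were the abundant members besides H2BC21. H1-2 stood at 771 and 906 in Control3 and 478 and 737 after MS-275 (log2 fold change -0.49, SE 0.37). H2BC12 stood at 1326 and 1934 against 855 and 1289.5, and H2AC6 at 2105 and 2904 against 1829 and 2764. Both MS-275 libraries lay below control in H1-2 and H2BC12, and the groups overlapped in H2AC6. H4C8, at 188 and 216 against 165 and 265, had a log2 fold change of 0.05 (SE 0.41). H3C10 stood at 54.5 and 41.4 against 34.9 and 28.9, with the groups apart.

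The low members went both ways. H2AC13 stood at 35.7 and 20.2 in Control3 and 17.4 and 1.99 after MS-275, H2AC8 at 17.8 and 20.2 against 5.81 and 23.9, and H2AC11 at 17.8 and 34.4 against 33.9 and 18.9. H4C14 stood at 8.91 and 4.04 against 17.4 and 21.9, H4C12 at 11.9 and 8.08 against 20.3 and 13.95, and H4C15 at 18.8 and 12.1 against 9.68 and 14.9. H4C14 and H4C12 were listed through the MS-275 libraries. H2BC18, called higher after A485, stood at 14.9 and 9.10 against 15.5 and 8.97 and did not pass the test. The members under the mean of 10 were H4C3, listed in this experiment only (9.90 and 10.1 against 6.78 and 4.98), H4C11 (10.9 and 3.03 against 3.87 and 9.97) and H2AC15 (7.92 and 11.1 against 10.7 and 1.99). These 3 and the untested members of the A485 list are the ones nearest the listing limit.

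**Figure D3:**
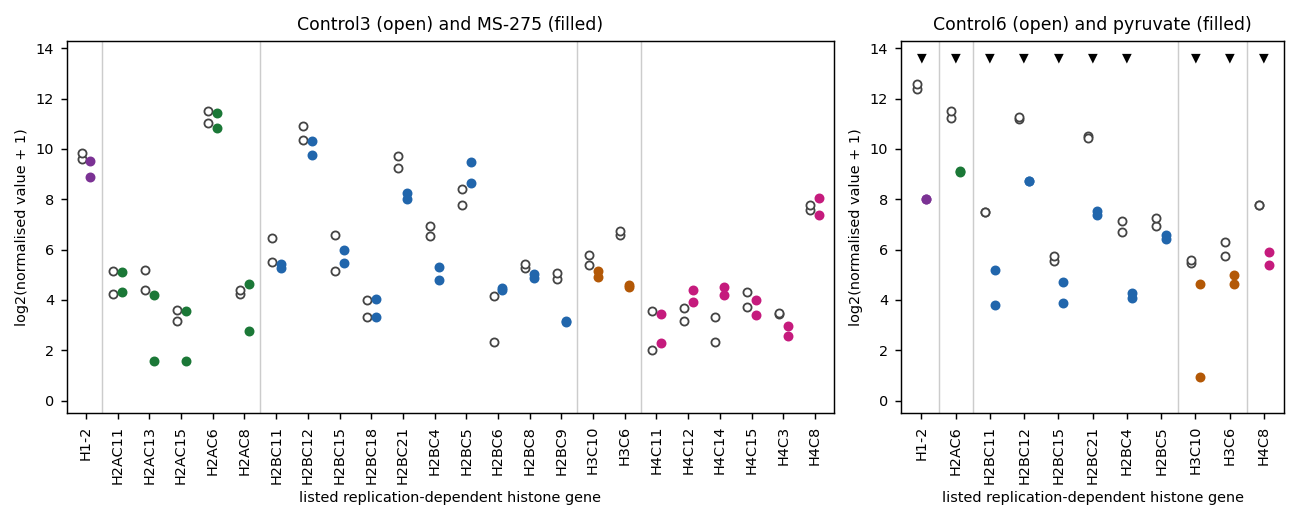
Normalised read counts, as log2(value + 1), of the 24 members listed in the MS-275 experiment (left) and the 11 listed in the pyruvate experiment (right). Open circles are control libraries, filled circles treated libraries coloured by class, and downward triangles mark the 10 members called lower. No member is marked in the MS-275 experiment.

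The 2 drugs gave different responses in some members when the difference itself was tested. For each gene tested in both experiments, the change after A485 minus the change after MS-275 was estimated in 1 fit of the 8 libraries. Of 21 members, 5 were called higher after A485 than after MS-275 and none lower, against 0.608% and 3.20% of 15130 genes. The 5 were H2BC4 with a difference of 4.20 on the log2 scale (SE 0.53, adjusted p = 0.0099, limma), H2BC21 with 3.82 (SE 0.41), H3C6 with 4.80 (SE 0.79), H2BC18 with 3.79 (SE 0.76) and H4C8 with 2.76 (SE 0.52). Their adjusted p in limma ranged from 0.00546 to 0.0413.

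The 5 had 10 reads or more in both Control2 libraries, while other members of the 21 did not, so no count of signs is drawn on. The difference was lowest in H2AC8 (0.92, SE 1.05), H2BC12 (0.94, SE 0.49) and H2AC11 (1.07, SE 1.03). H2BC5, called higher after A485, also had a positive estimate after MS-275, standing at 216 and 336 in Control3 and 397 and 708 after MS-275 (log2 fold change 0.97, adjusted p = 0.583, limma). Drug and experiment cannot be told apart, since each drug was tested against its own control. Fewer of the 5 were called in each fit that left out 1 library, and calls higher over all genes fell as well. Over the alternative settings, these fits among them, the difference ranged from 3.59 to 4.35 in H2BC21 and from 3.93 to 4.74 in H2BC4. It ranged from 3.98 to 5.62 in H3C6, from 3.16 to 4.30 in H2BC18 and from 2.41 to 3.29 in H4C8.

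**Figure D4:**
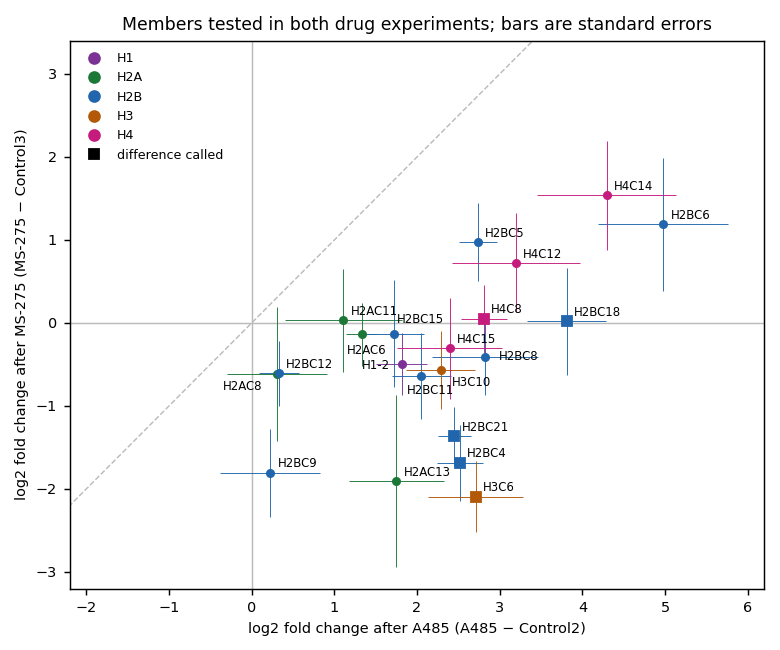
Log2 fold change after A485 (x axis) against that after MS-275 (y axis) for the 21 members tested in both experiments, with standard errors as bars. Squares are the 5 members called in the test of the difference, colours are classes and the dashed line marks equal change. Points below the dashed line have a larger log2 fold change after A485. H2BC6, H4C12, H4C14 and H4C15 were listed through the A485 libraries, so no count of signs is drawn on.

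The RNA of the listed replication-dependent histone genes was lower after pyruvate. The 11 listed members took 0.0418% and 0.0468% of reads in Control6 and 0.00696% and 0.00688% after pyruvate. All 11 were tested, 10 were called lower and none higher, in an experiment in which 23.1% of 12013 genes were called lower and 31.0% higher. The median log2 fold change of the members was -2.51 against -0.01 for all genes. All 11 members had both pyruvate libraries below both Control6 libraries, which 45.3% of all genes had (45.2% had the reverse order). All 11 members had 20 reads or more in both Control6 libraries. H2BC4, H2BC11, H2BC15 and H3C10 did not have them in both pyruvate libraries, so the listing favoured lower values after pyruvate in these 4. Of the other 7 members 6 were called lower.

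H1-2 had the largest fall. It stood at 5378 and 6138 in Control6 and at 257 and 254 after pyruvate (log2 fold change -4.49, SE 0.10, adjusted p = 4.7e-11, limma). H2BC21 stood at 1461 and 1389.9 against 167 and 185 (log2 fold change -3.01, SE 0.13, adjusted p = 2.35e-09, limma). In both genes the replicates lay close together and the groups far apart. H2BC12, not called after A485, fell by 2.51 on the log2 scale (SE 0.09), and H2AC6 by 2.26 (SE 0.10).

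H2BC5 was the member not called, at 122 and 152 in Control6 and 84.5 and 94.2 after pyruvate (log2 fold change -0.60, SE 0.26, adjusted p = 0.0506, limma). The log2 fold changes of the other called members were -1.21 (H3C6), -1.35 (H2BC15), -2.12 (H4C8), -2.74 (H3C10), -2.75 (H2BC4) and -3.002 (H2BC11). H3C10 rested on an uneven pair, with 43.2 and 46.7 in Control6 and 23.6 and 0.924 after pyruvate. The summed counts after pyruvate were 0.0443 times those of control in H1, 0.208 in H2A, 0.173 in H2B, 0.359 in H3 and 0.230 in H4. In H1, H2A and H4 the sum held only 1 listed member, H1-2, H2AC6 and H4C8. The H2B and H3 sums took in members whose listing favoured lower values after pyruvate. After a trend on length and GC content was removed from each library 9 members were called lower (median -2.43, against 0.20 for all genes). With equal library totals 8 were called lower (median -2.197, against 0.30 for all genes). Over all genes, calls lower went from 2777 of 12013 to 1211 of 11871 with the trend removed and 1741 of 12013 with equal totals.

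**Figure D5:**
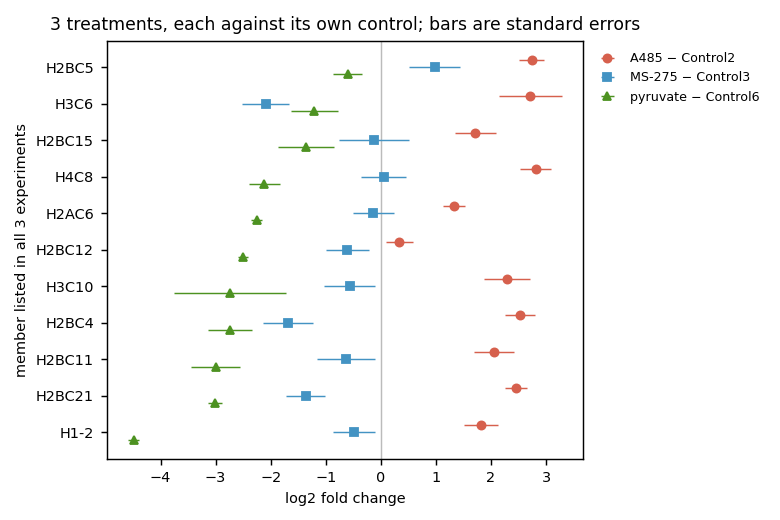
Log2 fold change of the 11 members listed in all 3 experiments after A485, MS-275 and pyruvate, each against its own control, with standard errors as bars. Pyruvate estimates lie below 0, A485 estimates above 0 and MS-275 estimates on both sides of 0. H2BC4, H2BC11, H2BC15 and H3C10 had 20 reads or more in both Control6 libraries but not in both pyruvate libraries. Their listing favoured lower values after pyruvate, so no count of signs is drawn on.

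Other histone genes and genes that work with histones were counted from lists. In the MS-275 experiment 0 of all 15883 genes were called, so no list could hold a call there. Replication-independent histone genes are expressed outside S phase as well. After MS-275 none of 13 such genes was called, and the smallest p-values were those of CENPA, the centromeric H3 variant (log2 fold change -4.59, adjusted p = 0.142, limma), and H2AX, the H2A form phosphorylated at DNA breaks (-1.75, adjusted p = 0.243, limma). After pyruvate 5 of 11 were called higher, where 31.0% of all genes were, namely H2AZ1 (1.94), H2AZ2 (1.40), H3-3A (1.99), H3-3B (1.58) and CENPA (1.81). H2AJ, an H2A variant that builds up in senescent cells, was called lower (-2.14), as were 23.1% of all genes. The higher ones encode variant H2A and H3 histones deposited without DNA replication.

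The list of factors for histone gene transcription and 3-prime processing had no call among 23 genes after A485 or after MS-275. The smallest p-values after A485 were those of HINFP, an activator of H4 genes (log2 fold change 0.75, adjusted p = 0.0881, limma), and CSTF2 (-0.47). After MS-275 they were those of SLBP (-0.60) and SRRT (-0.52). After pyruvate 11 of 22 were called higher and 2 lower, the latter being LSM10 (-1.69) and UPF1 (-1.19), a helicase needed for decay of histone mRNA. The smallest p-values among those called higher were those of NCBP1 (3.26), part of the nuclear cap-binding complex, and CPSF2 (3.403), a subunit of the cleavage complex. Histone chaperones and import factors had no call in the 2 drug experiments, with the smallest p for CABIN1 (-0.81) and SSRP1 (-0.80) after A485 and for ASF1B (-2.83) and TONSL (-2.02) after MS-275. After pyruvate 9 of 22 were called higher, led by SUPT16H (4.23) and NAP1L1 (2.53), and 3 lower (HIRA, DAXX and TONSL), to be read against the 31.0% and 23.1% of all genes called in that experiment.

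S phase genes are given beside the members because histone transcription is tied to S phase. After A485 none of 22 was called, their median log2 fold change was -0.33, and the smallest p-values were those of TK1 (-1.42) and MKI67 (-1.38). Their summed normalised counts were 68445 and 27511 in Control2 and 36408 and 25996 after A485. After MS-275 none was called, as no gene was, the median was -1.60 and 15 of 22 had an unadjusted p under 0.05. Over all genes 1730 of 15883 had such a p. RRM2 (-3.65) and TYMS (-2.42) were lowest in p among the 22. After pyruvate 13 of 21 were called higher and CCNE1 (-1.14) lower, where 31.0% and 23.1% of all genes were. Their median was 1.47, and RRM1 (3.97) and RRM2 (2.31), subunits of ribonucleotide reductase, had the smallest p. After pyruvate the S phase genes thus had a median above 0 while the members had a median below 0.

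RNAs without a poly(A) tail were mostly not listed, with 4 of 17 in the A485 list, 6 in the MS-275 list and 1 in the pyruvate list. Those listed after A485 were RMRP (log2 fold change 0.69), SNORA73B (-0.72), SNORD3A (0.24) and RN7SL1 (0.09), and none was called there or after MS-275, where the smallest p-values were those of RNY1 (-1.30) and SNORA73B (-0.73). After pyruvate RN7SL1, the RNA of the signal recognition particle, stood at 358 and 448 in Control6 and at 98.3 and 87.7 after treatment and was called lower (-2.10). Their part in the histone results was not tested.

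The annotation of the members differed in how far it ran past the stem-loop. In 13 members an annotated transcript reached 479 bases or more beyond the stop codon, and in 21 it ended within 88 bases. Among members with 10 reads or more in both Control2 libraries, 10 of 10 long-annotated members were called higher after A485, with a median log2 fold change of 2.49, against 2 of 8 short ones (H1-2 and H2BC8), with a median of 0.72. Over all members of the A485 list the median Control2 value was 99.6 in the long-annotated group and 12.5 in the short one. Annotation and level cannot be told apart here. H2BC12, short in its annotation and abundant, was not called, while H1-2, also short and abundant, was. After pyruvate 8 of 9 long-annotated and both short-annotated members were called lower. Gene counts do not show whether a read came from the coding part or from beyond the stem-loop.

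By position, 27 members lay in chr6:26055740-27893891 and 7 in chr1:149782689-149887411. Among members with 10 reads or more in both Control2 libraries, 10 of 15 on chromosome 6 and 2 of 3 on chromosome 1 were called higher after A485, with medians of 1.81 and 2.45. Of 23 other listed genes that start within the chromosome 6 stretch, 15 met the same limit and 2 of them were called higher after A485, BTN2A2 (1.498) and HCG11 (1.23). The fit also called 4 that were listed through the A485 libraries, ZNF204P, ENSG00000272468, ENSG00000282988 and ENSG00000283064. The last overlaps H2BC5 and H2BC6 on the opposite strand, stood at 0 and 2.45 in Control2 and at 58.2 and 44.5 after A485, and cannot be told apart from them where counting ignored strand. None of 14 tested was called after MS-275. After pyruvate 3 of 10 were called higher (HMGN4, HCG11 and BTN2A3P) and 2 lower, among them BTN2A2 (-1.22), against 31.0% and 23.1% of all genes.

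H2BC18 and H2BC4 also overlap other listed genes on the opposite strand, and H2BC18 overlaps ENSG00000233030 on the same strand. In 22 of the 34 members the coding part matched another member's at 90% of positions or more. Of the H2B pseudogenes, which are no members, 2 were picked after their values were seen, H2BC20P standing at 336 and 233 in Control2 and 2595 and 2164 after A485, and H2BC19P at 129 and 80.8 against 905 and 771.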

How the data were processed

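Per the labels and the submitters' processing notes, the authors trimmed reads with Trim Galore (0.6.10), aligned them to hg38 with HISAT2 (2.2.1), counted them with featureCounts (2.0.6) and normalised with DESeq2 (1.34.0). The deposited values are a signal: each gene's reads, scaled by the size factor of that library. Annotation and strand setting are not given in the sources used here, so copies with near-identical sequence, and genes that overlap, can hold each other's reads. Reads were recovered by division, with 100% of values whole within 0.01. The IMR90 libraries held 24179065 to 46971227 reads, and replicates differed by more than sampling noise. Muscle libraries were not used.

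Values were transformed to log2(value + 1), which understates the change of low genes, and every gene whose mean over the 4 libraries was 10 or more was tested with limma (3.58.1) in R (4.3.3), with eBayes and an intensity trend, with two-sided p-values adjusted by Benjamini-Hochberg across all tested genes. The fit was tested on simulated data. Positions, coding parts and transcript ends came from GENCODE (hg38), promoters from RefSeq. Figures were drawn with matplotlib (3.10.9) in Python (3.11.15). Alternatives covered the pseudocount, filter, scaling, GC and length, fold minimum, shared fit, replicate block, edgeR (4.0.16), DESeq2 and left-out libraries. Members and lists were chosen with earlier results of these data known. Values in every library were given, per class, for the 2 members with the highest mean over the drug experiments and the 2 with the largest change after each drug, for members called in the difference of the drugs, and for the 2 with the largest change after pyruvate. From other lists the called genes were named, or the 2 with the smallest p where over 6 or none were called. The result of the replication-independent histone list after A485 is not reported here.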

Additional observations from a re-analysis of the deposited data

How the results depend on the processing

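Under settings other than leaving out a library, 427 results of the 21 named members kept their direction and their side of the threshold. Against these, 8 lost a call, 18 gained one and 6 turned sign. When 1 library was left out, 11 results of these members turned sign, and more calls were lost than gained. The count of 15 called higher after A485 was 17 by DESeq2, 14 by edgeR and 18 with equal library totals. It was 9 in the fit shared by all 12 libraries, which tested 11 members. Apart from the 9, these counts, and the A485 medians below, take in members listed through the A485 libraries, whose calls support nothing here. H4C12, lost by edgeR, and H1-3 and H4C15, gained with equal totals, were such members, while H2AC13, gained with DESeq2 and equal totals, was not. Over all genes, calls higher went from 532 to 782 by DESeq2, 542 by edgeR and 1669 with equal totals. The shared fit called 339 of 11989 genes higher. With a pseudocount of 10 the medians were 1.57 after A485 and -2.24 after pyruvate, and with equal totals the pyruvate median was -2.197. Called differences between the drugs were 9 with equal totals. This scaling moved the median difference of all genes from 0.02 to 0.55 and raised calls higher over all genes from 92 to 224. After MS-275 the fit on 12 libraries called 3 members lower. Signs turned in members not called after MS-275, at -0.11 in H2AC11 and H2BC18 and -0.092 in H4C8 with equal totals, -0.11 in H2AC11 and -0.23 in H2BC18 with quantile normalization, and -0.017 in H2BC18 without the length and GC trend. Replicate numbers are shared between groups without a stated pairing, and the correlation of same-numbered deviations was 0.32 for A485, 0.73 for MS-275 and 0.002 for pyruvate. With the replicate number as a block 19 members were called higher after A485, 5 lower after MS-275, 10 lower after pyruvate and 14 in the difference. Over all genes the block raised calls higher from 532 to 870 after A485 and from 92 to 1216 in the difference. It gave 1230 higher and 953 lower after MS-275, and moved calls lower after pyruvate from 2777 to 2783. Of the 19 members, H1-3, H2BC7, H4C4 and H4C15 were listed through the A485 libraries and were not called in the main fit.

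Leaving out 1 library gave 1 to 11 members called higher after A485 (medians 1.72 to 2.49), 7 to 9 called lower after pyruvate (medians -2.55 to -2.27), and 1 to 4 called differences. After A485 H2AC8 ranged from -0.37 to 0.97 and H2BC9 from -0.39 to 0.84. After MS-275 the ranges were -0.42 to 0.49 in H2AC11, -0.43 to 0.16 in H2AC6, -1.55 to 0.32 in H2AC8, -0.34 to 0.38 in H2BC18 and -0.29 to 0.39 in H4C8. The lone library left in a group is assumed to vary like the others. edgeR and DESeq2 for the MS-275 and pyruvate experiments were planned and left out, since low values in some of those libraries did not pass a stricter check for whole multiples of 1 step. The counts among members and neighbours with 10 reads or more in both control libraries were chosen after seeing the data. Members with few reads limit the precision.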

Other observations

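Also listed were H2AW and H3-2, core histone genes whose symbols fall outside the rule. They were looked up after the values were seen. After A485 neither was called, H2AW standing at 262 and 218 in Control2 and 481 and 436 after A485 (log2 fold change 0.94, adjusted p = 0.0711, limma), and H3-2 at 391 and 179.9 against 175 and 170.1 (log2 fold change -0.62). After pyruvate both were called lower, H2AW by a log2 fold change of -1.44 and H3-2 of -1.73. The pseudogenes H2BC19P and H2BC20P, with log2 fold changes of 3.02 and 3.08 after A485, were not called after pyruvate (1.04 and -0.27).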
